A study of Homo sapiens with 4 samples.

Results

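The 216 RNAs described here are antisense and divergent long non-coding RNAs, taken from a table of 12838 gene symbols by name alone. A symbol was a member if it ended in -AS1 (176 members), -AS2 (8), -AS3 (2), -AS (5) or -DT (25), and VIM-AS1 and OIP5-AS1 were left out by the rule. Each was set beside its partner, the gene whose name it carries. The libraries came from RNA immunoprecipitation in LM2-4175 cells, breast cancer cells selected for spread to the lung from MDA-MB-231. Each library came from cells with a stable construct that makes the ceramide synthase CerS4 on doxycycline, and the cells were kept in puromycin and hygromycin. The 4 groups were control IgG or anti-EXOSC10 antibody, each from cells without doxycycline or with 5 µg/mL doxycycline for 48 h, with 1 library per group. The study's primary comparison was RNA bound to EXOSC10 in untreated against doxycycline-treated cells, asked in relation to mRNA degradation and altered lipid metabolism. The cell line is the only one used, no group received doxycycline without the construct, and no entry for CERS4 was analysed here, so induction could not be checked and the agent and the transgene cannot be told apart.

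EXOSC10 is a 3' to 5' exoribonuclease of the nuclear RNA exosome, the complex that trims and degrades RNA in the nucleus. Many mammalian promoters fire in both directions, and the transcript that leaves the promoter away from the gene is usually short-lived, because early termination hands it to the exosome through the adaptors NEXT and PAXT. Names ending in -DT mark such divergent transcripts, which start beside the partner's promoter on the other strand. Names ending in -AS mark RNAs read from the strand opposite to the partner, which may run through the partner's body and may be longer-lived.

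By their RefSeq positions on GRCh38.p14, 213 members could be placed on the same chromosome as their partner. The gene spans overlapped for 154 and lay apart for 59, and the -DT members were mostly apart (20 of 25). Both start sites were listed for 146 pairs, and all 146 were on opposite strands. In 59 of these pairs the starts were back to back within 1000 bases, in 23 they faced each other within 1000 bases, and in 64 they were farther apart. Among the 23 -DT pairs with both starts, 22 were back to back, against 37 of 123 -AS pairs.

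Promoter windows of 300 bases (250 before the start and 50 after it) were found for 170 members in the RefSeq table. Their median GC content was 64.7%, beside 58.3% over all 27305 windows of that length, and their median number of CpG pairs was 22.5, beside 14. The GC box GGGCGG, searched on both strands, occurred in 102 of the 170 windows (60.0%), beside 44.6% of all windows. TATAAA occurred in 5.88% beside 12.0%, CCAAT in 32.4% beside 35.7%, the ETS core CCGGAAG in 16.5% beside 10.7%, and the palindromic NRF1 motif in 2.35% beside 1.36%. No motif of this set contains another, though their ends may overlap. Of the member windows, 144 (84.7%) touched the span of another gene, beside 42.1% of all windows. The windows of 5 members that the results below turn on are printed 5' to 3' on the member's strand, to show how such start regions look. They belong to the member counted as lower with EXOSC10 than with IgG in both treatments (SLC25A5-AS1, chrX:119469071-119469370, minus strand), to an abundant member that differed little (FGD5-AS1, chr3:14948392-14948691, minus strand), to a divergent RNA seen only with EXOSC10 after doxycycline (CEBPA-DT, chr19:33302571-33302870, plus strand) and to a pair of members lower with EXOSC10 after doxycycline (PSMA3-AS1, chr14:58298088-58298387, minus strand, and BAIAP2-DT, chr17:81034670-81034969, minus strand). Capitals mark the GC box on either strand, GGGCGG or CCGCCC.
SLC25A5-AS1: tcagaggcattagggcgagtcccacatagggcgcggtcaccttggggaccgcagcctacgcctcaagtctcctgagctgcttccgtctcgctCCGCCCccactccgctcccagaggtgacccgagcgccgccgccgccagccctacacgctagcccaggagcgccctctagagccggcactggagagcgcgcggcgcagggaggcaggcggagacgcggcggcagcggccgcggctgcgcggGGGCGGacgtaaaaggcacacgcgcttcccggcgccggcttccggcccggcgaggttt
FGD5-AS1: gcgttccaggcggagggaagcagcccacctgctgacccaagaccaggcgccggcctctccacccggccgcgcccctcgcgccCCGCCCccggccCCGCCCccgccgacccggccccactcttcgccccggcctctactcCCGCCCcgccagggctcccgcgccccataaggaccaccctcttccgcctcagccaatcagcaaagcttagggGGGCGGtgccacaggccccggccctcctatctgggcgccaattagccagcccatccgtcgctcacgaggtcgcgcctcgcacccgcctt
CEBPA-DT: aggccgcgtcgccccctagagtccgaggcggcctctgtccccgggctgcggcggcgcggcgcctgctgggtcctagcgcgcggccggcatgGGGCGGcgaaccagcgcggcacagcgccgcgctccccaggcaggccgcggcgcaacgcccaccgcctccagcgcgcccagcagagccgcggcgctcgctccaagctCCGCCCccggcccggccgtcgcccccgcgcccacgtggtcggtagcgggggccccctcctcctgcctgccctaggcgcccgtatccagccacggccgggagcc
PSMA3-AS1: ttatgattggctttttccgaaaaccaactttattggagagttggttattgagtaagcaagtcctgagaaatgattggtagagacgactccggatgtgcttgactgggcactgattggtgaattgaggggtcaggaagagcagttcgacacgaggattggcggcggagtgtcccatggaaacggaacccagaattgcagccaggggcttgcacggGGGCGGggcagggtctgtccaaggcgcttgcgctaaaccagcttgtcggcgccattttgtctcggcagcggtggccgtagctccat
BAIAP2-DT: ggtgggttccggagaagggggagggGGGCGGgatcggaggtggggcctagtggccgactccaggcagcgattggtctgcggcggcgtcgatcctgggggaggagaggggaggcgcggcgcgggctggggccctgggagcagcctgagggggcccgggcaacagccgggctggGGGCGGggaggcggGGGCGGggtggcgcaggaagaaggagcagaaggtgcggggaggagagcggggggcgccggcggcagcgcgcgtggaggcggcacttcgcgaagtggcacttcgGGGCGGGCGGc
GC content was 73.0% in the SLC25A5-AS1 window, 74.7% in that of FGD5-AS1, 81.0% in that of CEBPA-DT, 54.3% in that of PSMA3-AS1 and 77.3% in that of BAIAP2-DT. A match to these letters describes the sequence and is not evidence of a bound factor.

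The libraries differed in ways that touch every value below. Ribosomal RNA took 56.3% of the reads with EXOSC10 after doxycycline and 71.7% to 83.8% in the other 3 libraries. Between 1023361 and 1229743 non-ribosomal reads were left in those 3 and 2408177 with EXOSC10 after doxycycline. The scaling factors ran from 0.451 to 2.55, and levels are given as scaled CPM, a library's reads set to a common total and then scaled by these factors. The cell identity could be checked in part: all 6 mesenchymal-like breast carcinoma markers (VIM, CD44, AXL, CAV1, LGALS1 and ANXA1) were in the table, as were 5 of 7 luminal markers without ESR1 and EPCAM. Among blood markers LYZ had an entry, and none was analysed here for PTPRC, CD3E and HBB. The summed scaled CPM of the luminal markers was 81.1 to 120.2 and that of the blood markers 0 to 1.71.

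Most members were scarce, and the way the table was filled bears on all counts of members. Every symbol in it had an entry with at least 10.0 reads in 1 library or more. The members held 10.1 to 553 reads each over the 4 libraries, with a median of 26, beside a median of 138 over all symbols. With EXOSC10 after doxycycline, 195 members reached 10 reads, against 66 with EXOSC10 untreated, 14 with IgG untreated and 20 with IgG after doxycycline. For 144 members (66.7%) the doxycycline EXOSC10 library was the only one with 10 reads, beside 22.4% of all symbols. The same held for 2729 other symbols, and whether symbols as scarce as the members reach a like share was not tested. These 144 entered the table through that library and had to hold more reads in it than in any other. That entry favours higher ratios there without fixing their direction on the scaled level. So no count over members that involves that library is support for a difference. Another 19 members reached 10 reads only with EXOSC10 untreated, 1 only with IgG after doxycycline and 0 only with IgG untreated. All 4 libraries held 10 reads for 8 members (3.70%), beside 48.7% of all symbols.

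Strand adds a further limit. Neither strand nor the rule for counting shared reads is stated in any label or header used, so reads from an overlapping partner cannot be told apart from a member's own. The values of 142 members were whole reads in all 4 libraries and those of 74 held fractions. Members with whole reads were 60.4% of those whose span overlaps the partner and 81.4% of those apart. Whole values do not show unshared reads: SSTR5-AS1 had 41, 113, 63 and 239 reads in the order IgG untreated, EXOSC10 untreated, IgG doxycycline and EXOSC10 doxycycline, and SSTR5, a somatostatin receptor, had 44, 130, 68 and 241. Both sets follow each other closely although all 8 values were whole. No input library was among the groups, so more RNA in the cells, more cells that hold it and more of it bound cannot be told apart.

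The 216 RNAs together took a larger share of non-ribosomal reads with EXOSC10 than with IgG in both treatments. Their share was 0.0661% with IgG untreated (exact Clopper-Pearson 95% interval 0.0613 to 0.0712) and 0.182% with EXOSC10 untreated (0.174 to 0.190). After doxycycline it was 0.0737% with IgG (0.0690 to 0.0787) and 0.247% with EXOSC10 (0.241 to 0.253). The intervals of the IgG and EXOSC10 libraries lay apart in each treatment, and they cover counting error only. Of the members, 144 entered the table through the doxycycline EXOSC10 library alone and 19 through the untreated EXOSC10 library alone. A larger EXOSC10 share was partly fixed by that entry, so these shares are descriptions. The EXOSC10 share was 2.75 times the IgG share untreated and 3.35 times after doxycycline, while doxycycline over untreated gave 1.36 times with EXOSC10 and 1.12 times with IgG. The 168 partners found in the table took 1.19%, 1.47%, 1.35% and 1.60% in the order IgG untreated, EXOSC10 untreated, IgG doxycycline and EXOSC10 doxycycline. For the partners EXOSC10 was 1.23 and 1.19 times IgG, which is below the members' ratio in both treatments. Other long non-coding classes stood at like ratios: 184 LINC and microRNA host genes at 3.26 and 3.94 times, and 18 small nucleolar RNA host genes at 2.95 and 2.98 times. Without SLC25A5-AS1, left out here because of its values, the members stood at 3.42 and 4.04 times, and with only the 142 whole-read members at 3.44 and 3.69 times. A rise on this scale was shared by the typical symbol. Scaled to the total of non-ribosomal reads, the median log2 ratio of EXOSC10 over IgG was 1.05 untreated and 1.29 after doxycycline over all symbols compared, beside 1.75 and 2.14 over the members compared.

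**Figure D1:**
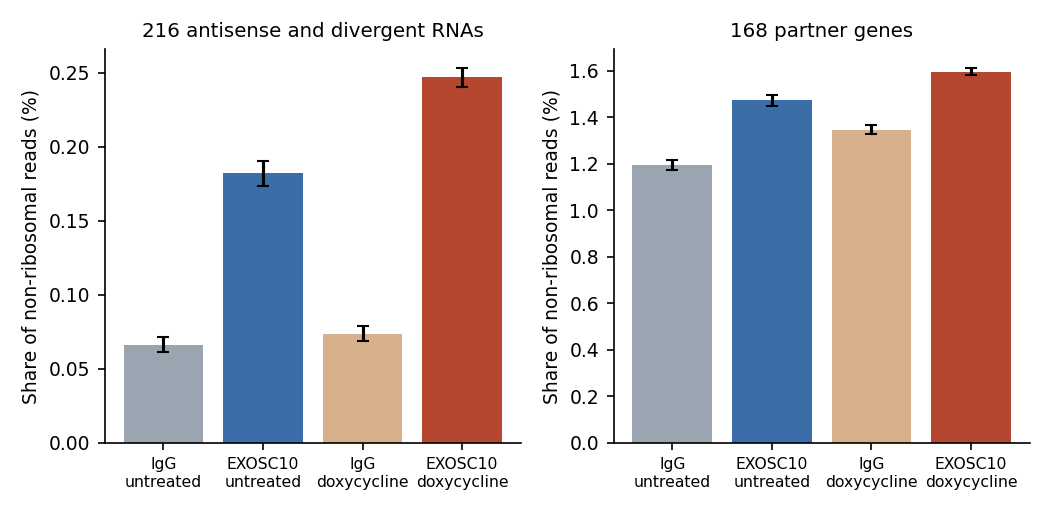
Share of non-ribosomal reads in percent on the 216 antisense and divergent RNAs (left) and on the 168 partner genes (right), as bars for the 4 libraries with exact 95% counting intervals. The members stand at 0.182% and 0.247% with EXOSC10 against 0.0661% and 0.0737% with IgG, and the partners at 1.47% and 1.60% against 1.19% and 1.35%.

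The 144 members that entered the table through the doxycycline EXOSC10 library alone were each under 10 reads in both untreated libraries. They were chosen through an EXOSC10 library, so their untreated values are a description. They held 149 reads with IgG and 350.1 with EXOSC10, or 0.0142% and 0.0342% of non-ribosomal reads, a ratio of 2.41. The 2729 other symbols that entered the table in the same way stood at 1.77. On the scaled log2 level the members were at 0.22 (-0.06 to 0.51), an interval that includes equality, and the other symbols at -0.22 (-0.28 to -0.17). This comparison was added after the data were seen.

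The members with the most reads were measured best, and several of them varied little between libraries. SLC25A5-AS1, named for the mitochondrial ADP/ATP carrier SLC25A5, had 59.4 scaled CPM with IgG untreated, 12.4 with EXOSC10 untreated, 51.0 with IgG after doxycycline and 11.3 with EXOSC10 after doxycycline. Both IgG values were above both EXOSC10 values, and treatment moved neither antibody beyond counting error. FGD5-AS1, named for a guanine nucleotide exchange factor, had 13.4, 16.2, 10.5 and 17.6 in the same order. SLC9A3-AS1, whose partner is a sodium-proton exchanger, had 9.18, 12.8, 9.37 and 10.8. SSTR5-AS1 had 15.7, 21.5, 18.5 and 17.0. For these last 3 members no ratio reached 2-fold in any of the 4 comparisons. PAX8-AS1, beside a paired-box transcription factor gene, had 3.44, 7.61, 9.96 and 11.5. Here the untreated IgG library was the lowest and the doxycycline EXOSC10 library the highest. ZNF503-AS2, whose span overlaps ZNF503, had 9.73, 39.6, 9.68 and 154 reads in the same order. Its log2 ratio of EXOSC10 over IgG was 0.98 untreated and 1.88 after doxycycline, and its limma estimate of 1.43 did not pass (adjusted p = 0.12). Levels of different RNAs are not compared, since the values are not per length.

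**Figure D2:**
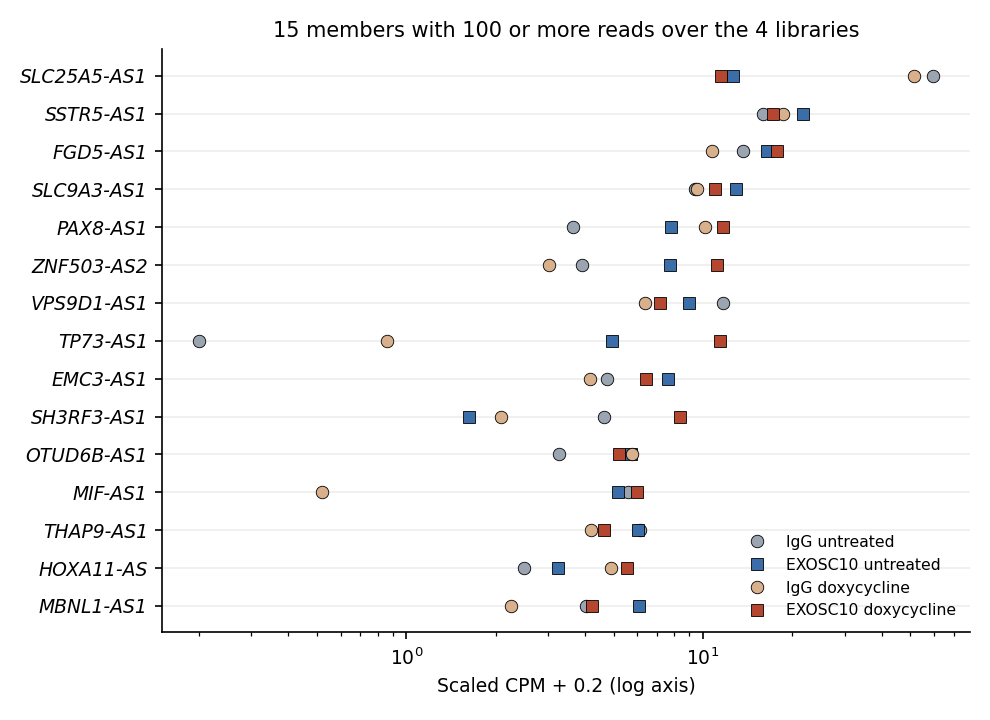
Scaled CPM plus 0.2 on a log axis for 15 members with 100 or more reads over the 4 libraries, 1 point per library (circles IgG, squares EXOSC10). SLC25A5-AS1 has both IgG points to the right of both EXOSC10 points, TP73-AS1 has both IgG points to the left, and several others lie within a narrow span.

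Comparing EXOSC10 with IgG over both treatments, TP73-AS1 and ARRDC1-AS1 rose and SLC25A5-AS1 fell. TP73-AS1, an RNA beside the gene of the p53 family factor p73 that RefSeq now lists as a transcribed pseudogene, had no read with IgG untreated, 4.72 scaled CPM with EXOSC10 untreated, 0.66 with IgG after doxycycline and 11.2 with EXOSC10 after doxycycline. Both EXOSC10 values were above both IgG values. Its log2 estimate was 4.17 (SE 0.94, adjusted p = 0.015 by limma with Benjamini-Hochberg adjustment). ARRDC1-AS1, antisense to the gene of an arrestin-domain adaptor protein, had no read in either IgG library and 3.62 and 3.71 scaled CPM (19 and 52 reads) with EXOSC10 untreated and after doxycycline. Its estimate of 4.27 (SE 1.26, limma adjusted p = 0.049) depends on the pseudocount and was 2.22 with 1 CPM. After doxycycline it was at least 4.22-fold higher with EXOSC10, taking a floor of 3 reads in the IgG library. Its partner ARRDC1, whose span shares 29 bases with it, had 8.42, 15.2, 6.15 and 15.7 scaled CPM, a limma estimate of 1.08 (SE 0.40) that did not pass (adjusted p = 0.11). SLC25A5-AS1 was at -2.20 (SE 0.29, limma adjusted p = 0.0017). SLC25A5 itself fell too, with 192, 102, 203 and 76.3 scaled CPM and an estimate of -1.16 (SE 0.26, limma adjusted p = 0.015). The spans of these partners overlap by 677 bases and SLC25A5-AS1 held fractions of reads, so shared reads cannot be told apart.

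Of the 52 members that could be tested in this fit, 2 rose and 1 fell, beside 1.26% higher and 16.2% lower among all 9596 symbols. At an unadjusted limma p under 0.05, 8 were higher and 2 lower, beside 8.90% and 21.7% of all symbols. The fit asked for 10 reads in 2 libraries, and 28 of the 52 members reached them in the 2 EXOSC10 libraries alone, beside 14.5% of all symbols tested. TP73-AS1 and ARRDC1-AS1 were both among those 28, so their place in the fit already required more reads with EXOSC10. The median estimate of the 52 members was 0.81, beside 0.18 over all symbols tested and 0.57 over those with at most 100 reads. Of the partners, 141 were tested, of which 2 rose and 30 fell. The fit had 4 libraries and 1 residual degree of freedom, with the treatments standing in for replicates, and nothing in the labels names separate cultures within a group. Without the mean-variance trend no symbol passed, with 12 members higher and 1 lower at an unadjusted limma p under 0.05 beside 8.87% and 17.2% of all symbols, and the limma adjusted p of TP73-AS1, ARRDC1-AS1 and SLC25A5-AS1 was then 0.12. Scaled by total counts, SLC25A5-AS1 was at -0.55 (limma adjusted p = 0.79).

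Within single treatments there was no replicate, so ratios carry counting intervals and no p. A member was counted as higher or lower if the libraries compared held 20 reads or more together, the ratio was 2-fold or more and the interval left out equality. Without doxycycline, 32 members could be compared, and 7 were higher and 1 lower with EXOSC10, beside 14.4% higher and 22.6% lower among all 8527 symbols. Their median log2 ratio was 0.77, beside 0.03. Among symbols with at most 100 reads, a background added after the data were seen, 28% were higher and 11.5% lower, with a median of 0.57. Of the 7 higher members, 6 reached 10 reads in EXOSC10 libraries alone. SREBF2-AS1, antisense to the gene of the cholesterol-synthesis regulator SREBP2, had 2.11 reads with IgG and 34.0 with EXOSC10, a log2 ratio of 2.73 (1.12 to 6.18). SREBF2-AS1 and APCDD1L-DT entered the table only through the untreated EXOSC10 library. That entry favoured their direction, so their ratios are descriptions. TP73-AS1 was at least 4.11-fold, APCDD1L-DT at least 4.14-fold and SMARCA5-AS1 at least 4.28-fold higher, each without a full read in the untreated IgG library. SMARCA5 encodes a chromatin remodelling ATPase. The sum of SMARCA5-AS1 and SMARCA5 stood at -1.33, near SMARCA5 alone (-1.47), which held most of the reads. PTOV1-AS2 was at 2.71 (0.59 to 8.62), PGM5-AS1 at 1.77 (0.20 to 4.31) and PAX8-AS1 at 1.10 (0.08 to 2.37). SLC25A5-AS1 was the lower one, at -2.24 (-2.70 to -1.83).

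After doxycycline, 103 members could be compared, and 42 were higher and 4 lower with EXOSC10, beside 22% and 19.9% of all 10945 symbols and 37.3% and 8.18% of those with at most 100 reads. Their median was 1.17, beside 0.26 over all symbols tested and 0.90 over those with at most 100 reads. Of the 42, 27 reached 10 reads in the doxycycline EXOSC10 library alone and 25 were under 1 read with IgG. TP73-AS1 was at 3.72 (2.38 to 7.31), from 2.26 reads with IgG. MIF-AS1, beside the gene of the cytokine MIF, had 5.38 and 4.98 scaled CPM with IgG and EXOSC10 untreated, and 0.32 and 5.80 after doxycycline. The doxycycline IgG value stood apart from the other 3, and rests on 1.09 reads. The ratio after doxycycline was 3.53 (1.78 to 9.62), and that without it -0.11 (-1.11 to 0.94). TRHDE-AS1 and ATXN1-AS1, named for a peptidase and for the gene of ataxin-1, had no read with IgG after doxycycline and 57.9 and 55.0 with EXOSC10, at least 4.69-fold and 4.46-fold higher. The sum of TRHDE-AS1 and TRHDE, whose spans overlap, stood at -0.0655, with all 26 IgG reads from TRHDE.

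The 4 lower members after doxycycline were SLC25A5-AS1 (-2.15, interval -2.49 to -1.85), CCDC183-AS1 (-1.76, -3.09 to -0.78), BAIAP2-DT (-1.26, -2.49 to -0.20) and PSMA3-AS1 (-1.18, -1.99 to -0.44). PSMA3-AS1, named for a proteasome subunit, had 3.06, 2.66, 7.03 and 2.99 scaled CPM in the order IgG untreated, EXOSC10 untreated, IgG doxycycline and EXOSC10 doxycycline. BAIAP2-DT, divergent to the gene of an actin regulator, had 1.91, 1.90, 3.51 and 1.35. In both, the doxycycline IgG library was the highest and the untreated pair of libraries did not differ beyond counting error. The promoter windows printed above had 54.3% GC for PSMA3-AS1 and 77.3% for BAIAP2-DT. Scaled by total counts, which moved the median of all symbols from 0.26 to 2.65, these 4 members stood above 0 (0.32 for SLC25A5-AS1, 0.51 for CCDC183-AS1, 1.03 for BAIAP2-DT and 1.22 for PSMA3-AS1), still below that median.

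In each treatment 26 members had reads enough for the comparison. Of these, 16 (61.5%) were above 0 in both treatments, beside 38.0% of 8377 symbols, and 2 were below 0 in both. Symbols with at most 100 reads had medians of 0.57 untreated and 0.90 after doxycycline, beside 0.03 and 0.26 over all symbols. Whether scarce symbols reach a like share was not tested. By the 2-fold rule TP73-AS1 and PTOV1-AS2 were higher in both and SLC25A5-AS1 lower in both, while 371 and 1421 of all symbols were. PTOV1-AS2 had 1, 19, 4 and 55 reads in the order IgG untreated, EXOSC10 untreated, IgG doxycycline and EXOSC10 doxycycline, and it reached 10 reads in the EXOSC10 libraries alone.

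**Figure D3:**
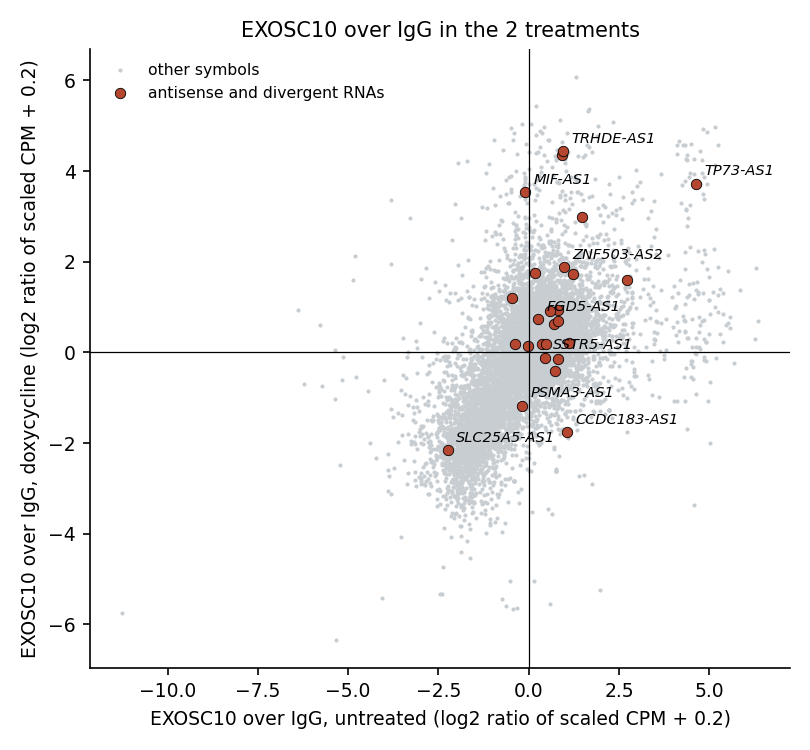
Log2 ratio of EXOSC10 over IgG without doxycycline (horizontal) and with it (vertical), 1 point per symbol with 20 or more reads in each pair of libraries, the 26 members in colour over the other symbols in grey. SLC25A5-AS1 lies at the lower left (-2.24 and -2.15) and TP73-AS1 at the upper right (4.62 and 3.72).

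The study's primary comparison, EXOSC10 after doxycycline over EXOSC10 untreated, could be made for 119 members. Higher were 36 (30.3%) and lower 15 (12.6%), beside 15.3% and 7.84% of all 11244 symbols. Among symbols with at most 100 reads the shares were 31.9% higher and 12.9% lower, and among members of that depth 33.0% and 14.6%, so the members' shares lay near those of other scarce symbols. The median ratio of the 119 members was 0.53, beside 0.02 over all symbols and 0.38 over scarce ones. Of the 36 higher members, 32 reached 10 reads in the doxycycline EXOSC10 library alone, and TP73-AS1 was the only one with 10 reads in both EXOSC10 libraries. Of the 15 lower members, 11 had 10 reads in both. Divergent -DT members numbered 13 here, with 6 higher and 2 lower.

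Higher after doxycycline with EXOSC10 was a set of RNAs with few or no reads elsewhere. SP2-AS1, antisense to the gene of an Sp-family transcription factor, had 2 reads with IgG untreated, 0 with EXOSC10 untreated, 0 with IgG after doxycycline and 43 with EXOSC10 after doxycycline, at least 5.37-fold higher than untreated. SLC26A4-AS1, whose partner is the anion exchanger pendrin, had 38 reads there and 0 in the other 3 libraries, at least 4.74-fold higher. SLC26A4 had 35 reads in the same library and 2, 0 and 0 in the others, and the spans overlap. CEBPA-DT, divergent to the gene of a differentiation factor of myeloid, liver and fat cells, had 27 reads there and 0 in the other 3, at least 3.37-fold higher. The starts of CEBPA-DT and CEBPA lie 287 bases apart and their spans do not overlap. SNRK-AS1 (36.3 reads, at least 4.53-fold), CARD8-AS1 (32, at least 3.99-fold), RBM5-AS1 and TRPM2-AS (28 each, at least 3.49-fold) also had no full read with EXOSC10 untreated. Their partners are a kinase, an inflammasome sensor, a splicing regulator and a calcium channel. SH3RF3-AS1, antisense to a ubiquitin ligase gene, was better measured: it had 4.45 scaled CPM with IgG untreated, 1.43 with EXOSC10 untreated, 1.88 with IgG after doxycycline and 8.16 with EXOSC10 after doxycycline. Its ratio was 2.36 (1.53 to 3.97). TP73-AS1 was at 1.21 (0.62 to 1.90), from 24.8 to 157 reads.

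Lower after doxycycline with EXOSC10 were SREBF2-AS1, with 34.0 reads untreated and none after doxycycline (at least 30.3-fold), and APCDD1L-DT, with 25 reads and none (at least 22.3-fold). APCDD1L-DT had no read with IgG in either treatment, so that all its reads came from the untreated EXOSC10 library. PGM5-AS1, named for a phosphoglucomutase-like protein, had 1.14 scaled CPM with IgG untreated, 4.35 with EXOSC10 untreated, 0.80 with IgG after doxycycline and 0.78 with EXOSC10 after doxycycline, a ratio of -2.21 (-3.67 to -1.39). The untreated EXOSC10 value alone stood high. SMARCA5-AS1 had no read with IgG and 4.91 and 1.25 scaled CPM with EXOSC10 untreated and after doxycycline (-1.81, -2.90 to -1.03). FBXL19-AS1 was at -2.03, MIR1-1HG-AS1 at -1.99, and PAXBP1-AS1 and UBA6-AS1 both at -1.61 (-2.97 to -0.68). UBA6 encodes a ubiquitin-activating enzyme and FBXL19 an F-box protein. With member and partner reads added together, the sum stood at 0.15 for SREBF2-AS1, 0.0204 for UBA6-AS1, -0.0760 for SP2-AS1, -0.17 for SNRK-AS1 and -0.65 for RBM5-AS1. The partner held most of the untreated EXOSC10 reads in each, so these sums do not test the members.

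**Figure D4:**
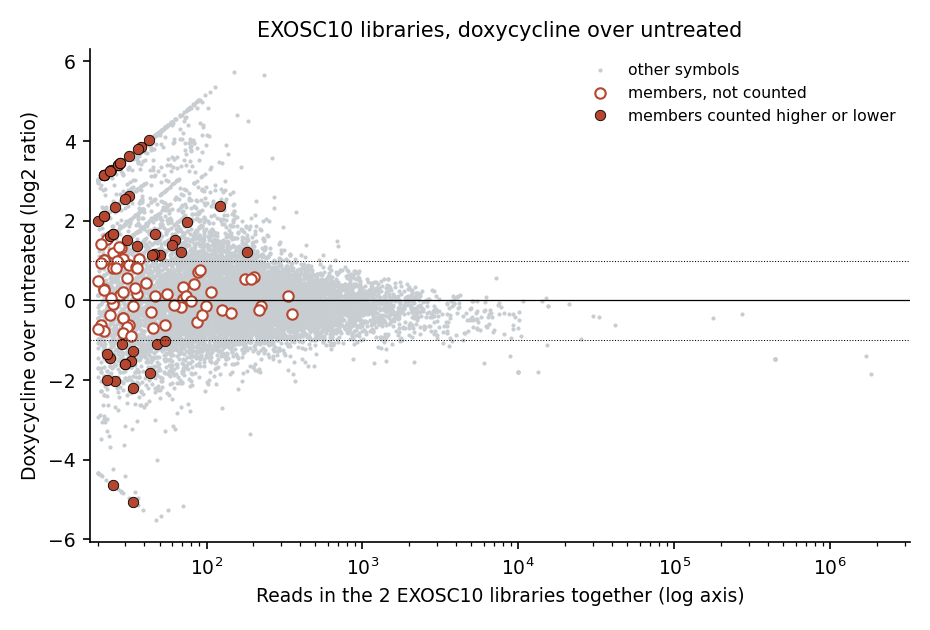
Log2 ratio of doxycycline over untreated with EXOSC10 against the reads of both EXOSC10 libraries together on a log axis, for the 119 members (filled where counted as higher or lower, open otherwise) and the other symbols (grey), with dotted lines at 2-fold. Counted members lie at low reads, and the diagonal streaks are symbols with no or few reads in the untreated library.

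The IgG libraries show the same contrast without the EXOSC10 antibody. Reads enough were held by 15 members, of which 2 were higher after doxycycline and 1 lower, beside 6.7% and 7.15% of all 7316 symbols and 11.7% and 15.4% of those with at most 100 reads. PAX8-AS1 was at 1.48 (0.44 to 2.78) with IgG and at 0.58 (0.08 to 1.13) with EXOSC10. NIPBL-DT, divergent to the gene of the cohesin loader NIPBL, had 1.53 scaled CPM with IgG untreated, 1.71 with EXOSC10 untreated, 4.98 with IgG after doxycycline and 4.28 with EXOSC10 after doxycycline. Both doxycycline values were above both untreated values, at 1.58 (0.09 to 3.73) with IgG and 1.23 (0.30 to 2.52) with EXOSC10. RAB11B-AS1, antisense to the gene of a small GTPase of recycling endosomes, had 18 reads with IgG untreated, 1 with EXOSC10 untreated, 2 with IgG after doxycycline and 10 with EXOSC10 after doxycycline. The untreated IgG library stood apart, and the ratio with IgG was -3.17 (-6.71 to -1.49). Whether the 2 antibodies differed in this contrast was not tested.

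Members were set beside the genes in their names, pair by pair. After doxycycline 86 pairs had 20 reads on both sides, and the member's EXOSC10 over IgG ratio was above its partner's in 65 (75.6%), with a median difference of 1.53 on the log2 scale. The counting intervals lay apart with the member higher in 28 pairs and lower in 5. Among the 23 pairs whose spans do not overlap, the member was above in 17 (73.9%). Untreated, it was above in 19 of 24 pairs (79.2%), with a median difference of 1.09. For doxycycline over untreated with EXOSC10 the member was above in 67 of 96 pairs (69.8%), with a median difference of 0.39, and with IgG in 4 of 9. Of the 86 members paired after doxycycline, 52 reached 10 reads in the doxycycline EXOSC10 library alone. Their entry favoured a higher ratio there, so these shares are descriptions. Pairs are not independent either, since CTBP1-AS and CTBP1-DT share the partner CTBP1. With at least 50 reads on both sides the member was above in 14 of 20 pairs after doxycycline and in 1 of 3 untreated.

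Pairs with 20 reads on both sides in both treatments numbered 19. GABPB1-AS1 stood at 0.17 and 1.75 untreated and after doxycycline and GABPB1, a subunit of an ETS-type transcription factor, at -1.59 and -3.27. With both sets of reads added, the sum stood at -2.32 after doxycycline, where GABPB1 held most of the IgG reads (114 against 3). MBNL1-AS1 was at 0.60 and 0.91, and MBNL1, a splicing regulator with 671 to 1216 reads in each library, at -1.36 and -2.13. MBNL1 itself fell with EXOSC10 over both treatments (limma estimate -1.75, SE 0.28, adjusted p = 0.0032). PTOV1-AS2 was at 2.71 and 1.59, and PTOV1 at -0.13 and -0.0545. The mean difference was 3.41 for TRHDE-AS1, 3.39 for GABPB1-AS1, 3.06 for MAPKAPK5-AS1, 2.50 for MBNL1-AS1, 2.24 for PTOV1-AS2 and 2.22 for ATXN1-AS1, and all of these spans overlap. The sum of MAPKAPK5-AS1 and its partner stood at -0.0072 after doxycycline, with most IgG reads from the partner.

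At the other end the partner was the higher one on the mean of both treatments, though not in each treatment. PSMA3-AS1 was at -0.19 and -1.18 and PSMA3 at 1.02 and 0.46, a mean difference of -1.42. HOXA11-AS, antisense to a limb and uterine homeobox gene, was at 0.38 and 0.18 and HOXA11 at 0.33 and 2.33, a mean difference of -1.05. The mean difference of SLC25A5-AS1 from SLC25A5 was -1.04, and those of SLC9A3-AS1 and OTUD6B-AS1 from their partners were -0.93 and -0.54. Untreated, SLC9A3-AS1 stood above SLC9A3 (0.46 against -0.11) and OTUD6B-AS1 level with OTUD6B (0.81 against 0.79). The counting intervals of OTUD6B-AS1 and OTUD6B did not lie apart in either treatment. SSTR5-AS1 and SSTR5 did not differ beyond counting error (0.45 and 0.55 untreated, -0.11 and -0.21 after doxycycline).

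**Figure D5:**
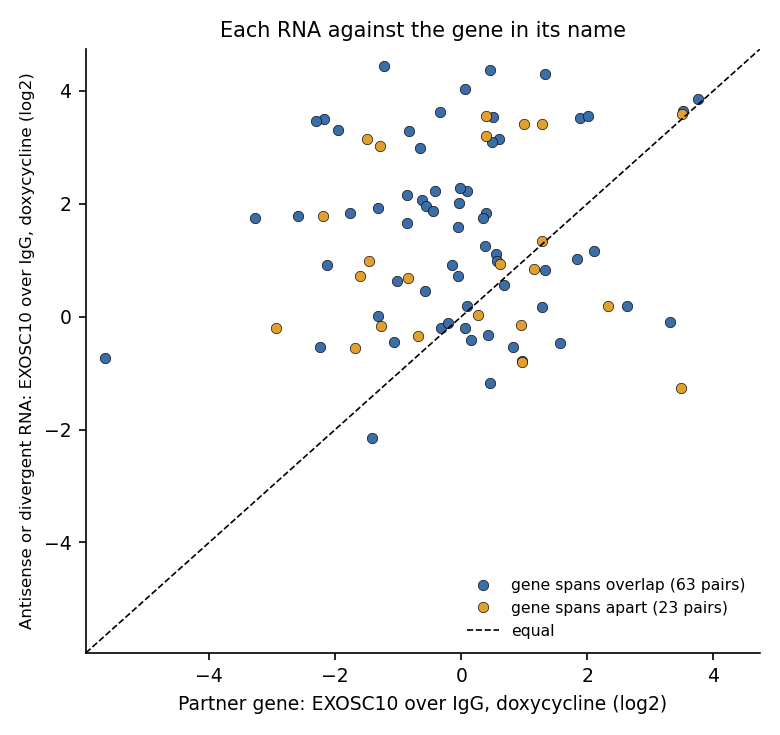
Log2 ratio of EXOSC10 over IgG after doxycycline for each member (vertical) against its partner (horizontal) in 86 pairs, coloured by whether the gene spans overlap, with a dashed line of equality. The member lies above the line in 65 pairs, 17 of them among the 23 pairs whose spans lie apart.

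Transcripts of the machinery that handles such RNAs were present in the same libraries. Of 25 genes of the nuclear exosome and its adaptors, 24 were in the table, and of the 21 tested over both treatments 0 rose and 3 fell with EXOSC10, beside 1.26% and 16.2% of all symbols. Those that fell were ZFC3H1, the scaffold of the PAXT adaptor (limma estimate -1.64, adjusted p = 0.013), PABPN1, the nuclear poly(A)-binding protein (-1.55, adjusted p = 0.0029), and TENT4B, a poly(A) polymerase (-1.59, adjusted p = 0.015). EXOSC10's own mRNA had 6, 15, 21 and 78 reads in the order IgG untreated, EXOSC10 untreated, IgG doxycycline and EXOSC10 doxycycline. Its log2 ratio of doxycycline over untreated was 0.91 (0.15 to 1.87) with EXOSC10 and 1.35 (0.06 to 3.02) with IgG. Of 25 genes of early termination, 24 were tested and 0 rose and 2 fell: XRN2, the nuclear 5' to 3' exonuclease (limma estimate -2.44, adjusted p = 0.0015), and INTS6, an Integrator subunit (-1.75, adjusted p = 0.0038). With EXOSC10, doxycycline over untreated, 6 of 22 exosome and adaptor genes were higher and 2 lower, and 2 of 25 termination genes were higher and 2 lower, beside 15.3% and 7.84% of all symbols. These are amounts of mRNA in the precipitates and say nothing of the proteins.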

How the data were processed

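RNA immunoprecipitates from LM2-4175 cells, turned into SMARTer mRNA-seq libraries (per the labels), were sequenced in 4 libraries. The authors deposited CPM values (reads set to a common total per library), read as such from the values, with a constant of 0.0001 on each entry. STAR, Partek and hg38 are named per the submitters' processing notes. Versions, strand and counting rule: not given in the sources used here.

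After removal of the constant, the 24015 entries were summed to 12838 symbols. The lowest values lay on steps of 0.132 to 0.269 CPM per read. Reads were estimated as CPM over step, giving 3723290 to 7575123 reads per library. Between 67.6% and 74.0% of symbols came out whole within 0.05 read. The rest held fractions, so no count model was used. Scaling was by trimmed mean of M values over the 4 libraries (30% of ratios and 5% of levels trimmed).

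Ratios are log2(scaled CPM + 0.2), which understates low genes, with exact Clopper-Pearson 95% intervals on the reads. Intervals, and floors of 3 reads in the library without a read, cover counting error only, since reads without molecular identifiers are not independent. The antibody effect over both treatments was fitted with limma 3.58.1 in R 4.3.3 (mean-variance trend, treatment as covariate, 10 reads in 2 libraries, Benjamini-Hochberg at 0.05). The fit was run on simulated data in which only symbols with many reads were changed. That run does not cover members as scarce as most here.

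Names and positions came from RefSeq tables of GRCh38.p14, in which 202 members matched a current symbol and 14 an older one. Named members were those past the limma threshold, those with intervals farthest from 0 (8 each way for EXOSC10 with doxycycline, 4 in the other comparisons), the 15 with the most reads, and the 6 pairs each way with the largest mean difference. The members, lists and tests were chosen with earlier results of these data known. The alternatives tried were other scalings, read minima, pseudocounts, no trend, whole-read members alone, and summing with the partner. Columns of other samples in the table numbered 0. Values of 1 member are not reported here.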

Additional observations from a re-analysis of the deposited data

How the results depend on the processing

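Leaving out 1 library was not possible, because each group has 1 library and the additive fit on 3 libraries keeps no residual degree of freedom. No paired analysis was possible because the labels carry no replicate numbers and each group has 1 library, though the limma fit itself sets the antibodies against each other within each treatment. The 20 reads asked of a ratio, the 1 library per group and the unknown strand limit what can be seen of RNAs with a median of 26 reads. Over all alternatives 35 counts, shares and percents stayed near their value and 51 moved. Of the values of named members, 709 kept their direction and their side of the threshold, 88 newly passed it, 35 no longer did and 16 turned. Most of those that turned did so on summing with the partner, where the sum can follow the partner.

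Total counts moved the median of all symbols from 0.02 to 1.04 for EXOSC10 with doxycycline, from -0.03 to -0.65 for IgG with doxycycline, and from 0.03 to 0.83 and from 0.26 to 2.65 for EXOSC10 over IgG untreated and after doxycycline. With it, members were 71 higher and 4 lower for EXOSC10 with doxycycline (all symbols 51.6% and 1.33%), 0 and 2 for IgG with doxycycline (1.57% and 27.4%), 22 higher untreated for EXOSC10 over IgG (42.8%), and 101 higher and 0 lower after doxycycline (85.9% and 0.585%). In the limma fit it gave 13 higher and 0 lower (5.43% and 0.0729%). SLC25A5-AS1 (0.32), CCDC183-AS1 (0.51), PSMA3-AS1 (1.22) and BAIAP2-DT (1.03) then turned above 0 after doxycycline. With the non-ribosomal total, EXOSC10 over IgG gave 24 higher untreated (all symbols 50.8%), 75 higher and 1 lower after doxycycline (58.0% and 7.33%), and 19 higher in the limma fit (36.5%).

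With a minimum of 100 reads, 2 members were higher and 0 lower for EXOSC10 with doxycycline, 0 higher and 0 lower for IgG, 0 higher for EXOSC10 over IgG untreated, and 3 higher and 1 lower after doxycycline, among 12, 2, 3 and 11 members. All symbols stood at 5.83% and 4.19%, at 2.78% and 3.8%, at 4.95% higher, and at 13.3% and 27% in that order. Without a minimum the counts were 76 and 31, 8 and 6, and 30 and 7 of 216 members in the first 3 comparisons. All symbols stood at 18.4% and 9.09%, 6.59% and 6.87%, and 13.5% and 17.5%. A pseudocount of 1 CPM left 9 lower of 119 for EXOSC10 with doxycycline (all symbols 5.35%). Whole-read members alone gave 22 higher of 77 for EXOSC10 with doxycycline (all symbols 15.3%). For EXOSC10 over IgG they gave 3 higher and 0 lower of 17 untreated (14.4% and 22.6%) and 25 higher of 63 after doxycycline (22%). In the limma fit they gave 1 and 0 of 33 (1.26% and 16.2%). Their shares of reads were 0.0328%, 0.113%, 0.0416% and 0.154% in the order IgG untreated, EXOSC10 untreated, IgG doxycycline and EXOSC10 doxycycline.

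Summing a member with its partner gave 3 lower of 170 for EXOSC10 with doxycycline (all symbols 7.71%). For IgG it gave 5 higher and 10 lower of 131 (6.63% and 7.16%). For EXOSC10 over IgG it gave 12 higher and 28 lower of 139 untreated (14.3% and 22.7%), and 34 lower of 169 after doxycycline (20.1%). Partners took more reads (1.19% against 0.0661% of non-ribosomal reads with IgG untreated), so a sum can follow the partner and does not test the member. For EXOSC10 with doxycycline the sum was on the other side of 0 from the member for SP2-AS1 (-0.0760), SNRK-AS1 (-0.17), RBM5-AS1 (-0.65), SREBF2-AS1 (0.15) and UBA6-AS1 (0.0204). For EXOSC10 over IgG this held for SMARCA5-AS1 untreated (-1.33), and for SNRK-AS1 (-0.0927), RBM5-AS1 (-1.96), TRHDE-AS1 (-0.0655), ZNF503-AS2 (-0.30), GABPB1-AS1 (-2.32) and MAPKAPK5-AS1 (-0.0072) after doxycycline.

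In the limma fit, a filter of 20 reads in 2 libraries left 1 higher, among 20 members tested, beside 1.95% of all symbols. Without the trend 0 members were higher and 0 lower by limma, with 12 higher and 1 lower at an unadjusted p under 0.05 (all symbols 8.87% and 17.2%), and 0 of all 9596 symbols passed. The percent of pairs with the member above was 100% for IgG with doxycycline over 3 pairs with spans apart and 0% over 2 pairs with 50 reads, 57.1% for EXOSC10 over IgG untreated over 7 whole-read pairs and 33.3% over 3 pairs with 50 reads, and 85.3% after doxycycline over 34 whole-read pairs. Where no cause is given, the cause was not tested.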
